A study of Mus musculus with 40 samples.

Results

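The genes described here encode the subunits of RNA polymerases I, II and III. They were chosen by symbol, as all genes named Polr1, Polr2 or Polr3 followed by a letter whose mean level reached 1 FPKM (sequenced fragments, scaled to transcript length and to the size of the library) in at least 1 of the 12 groups of libraries. Of 28 such symbols, 27 qualified, out of 24056 genes with values. Polr2a was the last inside this limit, with a highest group mean of 1.08 FPKM in control late 2-cell embryos, and Polr3gl fell outside it with a highest group mean of 0.674 FPKM. By the enzymes their products belong to, 3 were subunits of Pol I only (Polr1a, Polr1b and Polr1e), 2 were shared by Pol I and Pol III (Polr1c and Polr1d), 5 by Pol I, II and III (Polr2e, Polr2f, Polr2h, Polr2k and Polr2l), 8 belonged to Pol II only and 9 to Pol III only.

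RNA-seq was performed on oocytes and embryos with and without maternal TDP-43, an RNA- and DNA-binding protein encoded by Tardbp, and the comparisons here ask how the mRNAs of the transcription machinery itself behaved. Females of 7 to 8 weeks on a mixed C57BL/6J and ICR background carried floxed Tdp43 alleles. In the Tdp43oKO females (oocyte-specific knockout, Tdp43 flox/flox;Zp3-Cre) Cre was driven by the Zp3 promoter, which is active in growing oocytes, and the control females were Tdp43 flox/flox without Cre, although their samples are labelled WT. Full-grown oocytes (FGO) were taken at 48 h of PMSG. After HCG, MII oocytes were taken at 13 h, embryos late in the 1-cell stage (1C) at 30 h, and 2-cell embryos early (E2C, 36 h) or late (L2C, 48 h) in that stage. All embryos came from matings with normal ICR males, so that they received an intact paternal allele and only the maternal store and the maternal allele were affected. In a separate experiment TDP-43 protein was depleted by Trim-away. For this, 1-cell embryos were injected with Trim21 mRNA and an antibody against TDP-43 (KD) or normal IgG (injection control). They were then cultured in KSOM medium and collected as L2C at 48 h after HCG. The study's methods do not state the genotype of the females that gave the injected embryos. Each library was made from a pool of 20 oocytes or embryos by Smart-seq2, without strand information, and each of the 12 groups had 2 libraries, so p-values measure only the spread between these pools, which may be technical. The libraries titled KD carry the genotype label WT and those titled as injection controls the label of a knockdown. The titles were followed here, and since Trim-away acts on protein, Tardbp mRNA (3.65 and 3.85 FPKM in KD, 5.29 and 5.95 in the injection controls) cannot check them.

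RNA polymerase I transcribes the large ribosomal RNA genes, Pol II the protein-coding genes and Pol III transfer RNAs, the small ribosomal RNA and other short RNAs. The 3 enzymes share a set of small subunits, Pol I and Pol III share a further pair, and each enzyme has its own large catalytic subunits, its own stalk and its own accessory subunits. In the mouse, the oocyte stores mRNA and then falls silent, and transcription resumes with a minor wave in the late 1-cell embryo and a major wave in the 2-cell embryo (zygotic genome activation, ZGA), while stored mRNAs are degraded.

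Promoters of 4 genes are shown because the results turn on them. Polr2i, Polr3g and Polr3k were lower in Tdp43oKO L2C embryos under every processing alternative tried, and Polr2j, the most abundant of the 27 mRNAs in every L2C library, was not. Each sequence runs 5′ to 3′ on the gene's own strand from 250 bases before to 50 bases after the start that RefSeq gives (promoter table of GRCm38.p6), and each was found once on its chromosome in mm9, the build of the study, at the coordinates given. Capitals mark exact matches, on either strand, to ETS (CCGGAAG), NRF1 (GCATGCGC), NF-Y (CCAAT) or SP/KLF (GGGCGG) motifs.
Polr2i, chr7:31016843-31017142, plus strand: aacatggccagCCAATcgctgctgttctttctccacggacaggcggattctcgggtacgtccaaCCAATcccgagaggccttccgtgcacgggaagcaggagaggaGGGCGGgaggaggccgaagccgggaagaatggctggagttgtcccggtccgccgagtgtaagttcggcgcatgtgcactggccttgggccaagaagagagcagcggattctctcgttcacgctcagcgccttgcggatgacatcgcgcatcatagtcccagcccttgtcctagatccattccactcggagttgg
Polr3g, chr13:81849963-81850262, minus strand: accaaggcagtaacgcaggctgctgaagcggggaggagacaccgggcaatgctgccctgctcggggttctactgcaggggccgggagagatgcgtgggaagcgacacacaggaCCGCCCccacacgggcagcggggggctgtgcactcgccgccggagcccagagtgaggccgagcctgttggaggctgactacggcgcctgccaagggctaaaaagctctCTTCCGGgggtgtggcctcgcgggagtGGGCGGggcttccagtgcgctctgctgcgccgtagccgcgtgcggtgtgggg
Polr3k, chr2:181598815-181599114, plus strand: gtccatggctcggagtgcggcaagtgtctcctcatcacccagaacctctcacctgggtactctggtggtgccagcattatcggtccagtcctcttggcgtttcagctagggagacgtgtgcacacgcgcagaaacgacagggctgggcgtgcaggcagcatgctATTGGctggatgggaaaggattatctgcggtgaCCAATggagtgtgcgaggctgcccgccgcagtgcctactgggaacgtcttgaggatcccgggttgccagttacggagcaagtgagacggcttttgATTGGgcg
Polr2j, chr5:136592311-136592610, plus strand: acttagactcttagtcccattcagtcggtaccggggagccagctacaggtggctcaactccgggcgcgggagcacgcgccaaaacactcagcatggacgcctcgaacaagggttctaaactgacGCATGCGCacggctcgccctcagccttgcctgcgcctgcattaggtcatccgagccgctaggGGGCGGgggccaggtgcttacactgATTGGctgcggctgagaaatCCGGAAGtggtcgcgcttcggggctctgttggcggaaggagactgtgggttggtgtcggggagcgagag
All 4 windows were rich in G and C, from 59.3% in Polr3k to 69.7% in Polr3g, and held 18 to 26 CpG dinucleotides. The Polr3k window held 3 NF-Y matches and none of the other motifs marked, whereas that of Polr2j held a match to each of the 4 motifs. Of the 27 genes, 21 had a promoter in the table. ETS matches were present in 7 of these 21 (33.3%, against 9.12% of 27025 promoters of this length) and SP/KLF matches in 14 (66.7% against 35.9%). NF-Y matches were present in 5 (23.8% against 37.9%), NRF1 matches in 2 (9.52% against 2.8%), TATA boxes (TATAAA) in 2 (9.52% against 14.2%) and YY1 matches (AAGATGG) in none, against 6.48% of all promoters. A match is a run of letters and not evidence that a factor is bound.

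The targeted gene behaved as labelled in the knockout. Tardbp was 7.62 to 20.3 FPKM in the control libraries of the 3 stages up to 1C and 0.884 to 4.84 in the Tdp43oKO libraries, and 6.14 to 8.15 FPKM against 1.95 to 3.52 in E2C and L2C, with no overlap at any stage. All 10 oocyte markers were present at a mean of 1 FPKM or more in every group. In Tdp43oKO L2C embryos 4 of them were called higher and 0 lower, with a median of 0.86 (-0.79 for all genes), although their sums overlapped (4742 to 5404 FPKM against 5346 to 5994 in control). In KD they summed to 9046 to 10520 FPKM against 14901 to 16320 in the injection controls, with 1 called higher and 0 lower. Genes of the 2-cell burst peaked in control E2C (sum of 8 markers 1426 to 1604 FPKM, of which Tcstv1 and Tcstv3 were near 0 throughout) and were lower in Tdp43oKO E2C (272 to 811). In L2C they were 69.6 to 83.4 FPKM in control and 514 to 581 in Tdp43oKO embryos, and in the injected embryos 179 to 382 in injection controls and 862 to 1103 in KD, so that by title the KD libraries lay above their controls, as Tdp43oKO L2C did. The sum of all FPKM was lowest in the Tdp43oKO L2C libraries (124265 and 126713, against 209102 and 215926 in control L2C and up to 432671 in FGO). The part of the stage markers in the results below was not tested, and results under other scalings of the libraries are given beside them.

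The subunit mRNAs spanned a wide range of levels. FPKM is per length, but whether transcript length still affects the order of genes was not tested. The longest transcripts of Polr2a and Polr1a have 6740 and 6105 bases, and those of Polr2k, Polr2j and Polr2d 619, 900 and 956. The order between genes is therefore a description of FPKM only. In control FGO, Polr2k (702 and 955 FPKM), Polr2j (863 and 744) and Polr2d (819 and 716) were the highest. At the other end, Polr2a, the largest subunit of Pol II and the carrier of its C-terminal repeat domain, was 0.5 and 0.187 FPKM in control FGO and never exceeded 1.16 FPKM in any of the 24 libraries. Polr1a, the largest subunit of Pol I, was also low, with rank 21 of 27 in control FGO, but Polr3a, the largest of Pol III, lay near the middle, with rank 14.

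**Figure D1:**
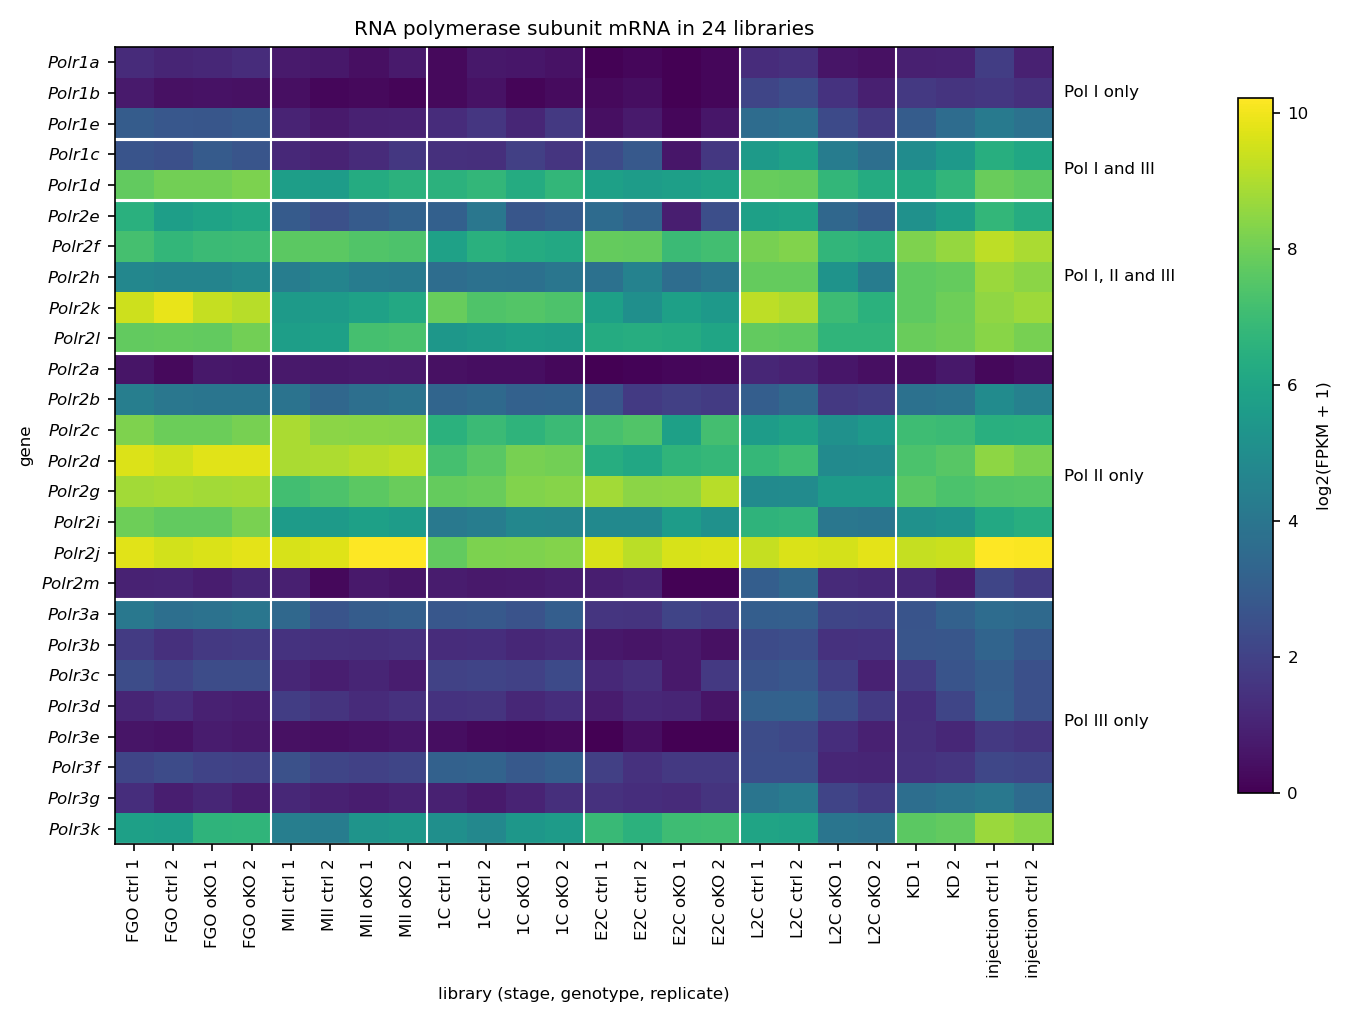
Level of 26 subunit mRNAs (rows, grouped by the polymerase they belong to) in each of the 24 libraries (columns), as log2(FPKM + 1) in colour. The small shared subunits and Polr2c, Polr2d, Polr2g, Polr2i and Polr2j are bright in most libraries, Polr2a and Polr1b are dark in nearly all, and most rows brighten from E2C to L2C in control and are darker in Tdp43oKO L2C.

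Order within a class was wide too. Among the Pol I subunits, Polr1e (a subunit of its initiation heterodimer) was the highest in control FGO at 6.96 and 5.91 FPKM, while the catalytic subunits Polr1a and Polr1b were at 1.42 and 1.07 and at 0.659 and 0.37. Of the pair shared with Pol III, Polr1d was at 217 and 263 FPKM and Polr1c at 5.3 and 4.66. Among the Pol III subunits, Polr3k, which takes part in RNA cleavage and termination, was far above the rest at 54.8 and 51.5 FPKM, and Polr3e was lowest at 0.494 and 0.411.

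The normal course of these mRNAs was followed first in control libraries, which neighbouring steps share. A gene entered a comparison when its mean there was 1 FPKM or more, the test was limma on log2(FPKM + 1), and a gene was called when the Benjamini-Hochberg adjusted p was at most 0.05 and the change at least 2-fold on that scale. From FGO to MII oocytes, 10 of the 21 subunit mRNAs tested fell and none rose, where 27.9% of the 8619 genes tested fell and 7.99% rose. The largest fall in FPKM was that of Polr2k, a small zinc-binding subunit of all 3 enzymes, from 702 and 955 FPKM to 46.7 and 47.6 (log2 fold change -4.09 ± 0.19 SE, limma adjusted p = 1.1e-12). Polr2e, another shared subunit, followed with -3.37 ± 0.31, and Polr2i, Polr1d, Polr2l and Polr1e fell by 2.27, 2.22, 2.03 and 2.01 on the log2 scale. Polr2g, Polr1c, Polr3k and Polr3c also fell. Whether falls and rises in FPKM between these stages were losses and gains of mRNA was not tested.

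Not every abundant mRNA fell at maturation. Polr2j, which dimerizes with Polr2c at the base of Pol II, stayed at 774 and 847 FPKM in MII oocytes (0.01 ± 0.14), and Polr2f, a shared subunit, was 202 and 201 FPKM after 145 and 108 (0.69 ± 0.17). The median change of the 21 was -0.87 against -0.07 for all genes tested, and with equal column totals, median-ratio scaling or quantile normalization 10, 9 and 9 were called lower. These scalings moved the median of all genes to 0.11, 0.11 and 0.30, and under quantile normalization alone Polr2c and Polr2f were called higher.

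From MII oocytes to 1C, 2 of 20 subunit mRNAs rose (14.4% of 8234 genes) and 5 fell (11.1%). Polr2k rose again, to 231 and 169 FPKM (2.04 ± 0.20, limma adjusted p = 9.6e-08), and Polr3c, a Pol III subunit of the initiation subcomplex, from 1.15 and 0.795 to 3.1 and 3.23 FPKM (1.08 ± 0.26). Polr3c did not pass without MII control replicate 2 or under median-ratio scaling and quantile normalization. Those that fell belonged to Pol II or to the common set: Polr2c (-1.94 ± 0.23), Polr2j (-1.67 ± 0.15), Polr2d (-1.54 ± 0.14), Polr2f (-1.49 ± 0.18) and Polr2i (-1.35 ± 0.15). With equal column totals, which moved the median of all genes from 0.01 to 0.27, 6 rose and 5 fell. Blood and immune markers (7 genes) summed to 22.8 to 198 FPKM in control 1C and 0.438 to 0.624 in control MII. In Tdp43oKO 1C they summed to 2.35 to 5.04. The control 1C libraries also enter the step to E2C and the 1C comparison with Tdp43oKO. The part of these markers in the results was not tested.

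From 1C to E2C, 4 of 21 rose (8.28% of 8023 genes) and 5 fell (37.3%), and the split depended on scaling, with 10 rising and 1 falling after median-ratio scaling, 8 and 1 after quantile normalization and 4 and 9 with equal column totals. The median of all genes was -0.72 as deposited and 0.05, -0.10 and -0.94 under these scalings, and that of the 21 subunits -0.20, 0.72, 0.50 and -0.30. Under all 4 scalings Polr1c, Polr2f, Polr2j and Polr3k rose and Polr2k fell. Polr3k went from 33.5 and 26.5 to 121 and 93.3 FPKM (1.80 ± 0.18, limma adjusted p = 1.2e-07), Polr2f from 57.4 and 88.6 to 223 and 216 (1.61 ± 0.23) and Polr2j from 218 and 295 to 789 and 571 (1.40 ± 0.20). Polr1c, which the study's rule places among minor ZGA genes when applied to these libraries, went from 1.64 and 1.63 to 4 and 6.24 FPKM (1.19 ± 0.30). It did not pass without E2C control replicate 2. Polr2k fell to 55.7 and 33.1 FPKM (-2.17 ± 0.26).

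Most subunit mRNAs then rose between E2C and L2C. In control embryos, 18 of 25 rose and 2 fell, against 39.7% and 22.9% of 8183 genes, and the median change was 1.82 against 0.53 for all genes. The other scalings moved the latter to between 0.15 and 1.21 and gave 17 to 21 rising and 1 to 3 falling. Polr2h, a shared subunit, went from 13 and 22 FPKM to 223 and 224 (3.65 ± 0.29, limma adjusted p = 2.4e-09), and Polr2k from 55.7 and 33.1 to 586 and 514 (3.64 ± 0.28, limma adjusted p = 2e-09). Polr1c rose by 3.12 ± 0.32 to 46 and 57.2 FPKM and Polr1e by 3.11 ± 0.31 to 11.4 and 12.5.

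Subunits of every class rose, but those of Pol II only at a share near that of all genes. All of the tested Pol I only and Pol I and III subunits rose (2 of 2 each). So did 4 of the 5 common subunits and 7 of 9 Pol III only subunits. Of the Pol II only subunits 3 of 7 rose, where 39.7% of all genes did. Their median change was 0.67 against 0.53 for all genes. In Pol III, Polr3g rose by 2.71 ± 0.29 to 14.9 and 17.9, and Polr3d and Polr3e, partners in one heterodimer, by 2.24 ± 0.31 and 2.09 ± 0.19. Polr3e was listed at 0 in E2C control replicate 1 and at 0.316 FPKM in replicate 2, and at 4.23 and 3.59 in L2C. The largest subunits rose to low levels: Polr2a was 0.0169 and 0.06 FPKM in control E2C and 1.16 and 0.994 in control L2C, and it passed only a fit without the filter on low values (1.00 ± 0.15).

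The 2 mRNAs that fell at this step were those of Pol II only. Polr2g, the stalk subunit that pairs with Polr2d, went from 443 and 350 FPKM to 28.4 and 29.5 (-3.72 ± 0.20, limma adjusted p = 2.5e-11) and Polr2c from 149 and 172 to 49.9 and 58.1 (-1.56 ± 0.33), a call that was lost with equal column totals. Polr2d itself was 81.5 and 70 FPKM in E2C and 112 and 132 in L2C (0.67 ± 0.20). The mRNAs of the stalk pair moved in opposite directions at this step, that of Polr2d with a limma adjusted p of 0.0046 but under 2-fold.

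By the rule the study used for developmental classes, applied to the control libraries, 9 of the 27 subunits were major ZGA genes (33.3%, against 10.4% of 11094 genes at 1 FPKM or more in a control stage), among them Polr1e, Polr2e, Polr2h, Polr2k, Polr2m, Polr3c, Polr3d and Polr3g. Polr1c fell among the minor ZGA genes (560 genes, 5.05%). Polr2c, Polr2d and Polr2g were maternal genes (11.1%, against 18.6% of genes), and 14 were none of these (51.9% against 66.0%). The study applied its rule to reference data, so its own classes may differ from these. The control E2C mean of Polr1c, 5.12 FPKM, lay just over the limit of the rule, and its mean rose further, to 51.6 FPKM in control L2C. All 3 maternal ones belonged to Pol II only.

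Few subunit mRNAs of oocytes and 1C embryos were called after maternal loss of TDP-43. In FGO, 0 of 23 tested passed in limma in either direction (1.7% of 8919 genes were higher and 1.31% lower, with 2 subunits at an unadjusted p under 0.05), and in 1C 0 of 22 (1.73% and 2.42% of 8211 genes, with 5 at an unadjusted p under 0.05), or 1 without 1C control replicate 1. In MII oocytes 2 of 18 were higher and none lower, against 4.24% and 1.33% of 7906 genes. Both Tdp43oKO MII libraries lay above both controls for 10 of the 18 (25.7% of genes) and below for 5 (35.2%). A further 1 subunit in FGO, 3 in MII oocytes and 4 in 1C passed the adjusted p in limma but not 2-fold. All of these were higher in Tdp43oKO.

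The 2 called in MII oocytes were Polr2l and Polr3k. Polr2l, a small subunit of all 3 enzymes, was 145 and 155 FPKM in Tdp43oKO MII oocytes and 52.2 and 54.6 in control, without overlap (1.47 ± 0.13, limma adjusted p = 2.2e-07), and this call held under every alternative. In FGO the same mRNA was 220 and 260 against 216 and 226 FPKM, so that the groups overlapped. In 1C and E2C they were close again, at 53.7 and 51 against 41.4 and 47.5 FPKM and at 77.2 and 64.4 against 78.3 and 81.7.

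Polr3k was above control in every library of the first 4 stages. It was 98.6 and 102 FPKM in Tdp43oKO FGO against 54.8 and 51.5 (0.91 ± 0.13, limma adjusted p = 0.00013, under 2-fold), and 38.6 and 41.5 against 19.5 and 18.5 in MII oocytes (1.04 ± 0.14, limma adjusted p = 3.4e-05). The MII call was lost with a pseudocount of 5, with equal column totals and without MII control replicate 2 or MII Tdp43oKO replicate 2. In 1C it was 41.5 and 47.3 against 33.5 and 26.5 (0.56 ± 0.14), and in E2C 132 and 137 against 121 and 93.3 (0.33 ± 0.22).

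At L2C the order was turned. Polr3k was 14.7 and 13.4 FPKM in Tdp43oKO against 61.7 and 58.6 in control (-2.03 ± 0.18, limma adjusted p = 4.8e-08), and the effect differed between L2C and E2C by -2.36 ± 0.27 (limma adjusted p = 3.8e-06). Polr2d showed the same order, with smaller differences than Polr3k in FGO and MII oocytes but not in 1C and E2C: in FGO 864 and 869 FPKM against 819 and 716, in MII 564 and 612 against 486 and 497, in 1C 280 and 264 against 146 and 195. It was 103 and 110 FPKM against 81.5 and 70 in E2C, then 29 and 29.5 against 112 and 132 in L2C. None of the earlier differences of Polr2d was called, and that of L2C was (-2.02 ± 0.18, limma adjusted p = 5.7e-08). Of 16 subunits tested at all of the first 4 stages, Polr2d and Polr3k lay above control throughout and none below, compared with 3% and 6.14% of 5891 genes.

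**Figure D2:**
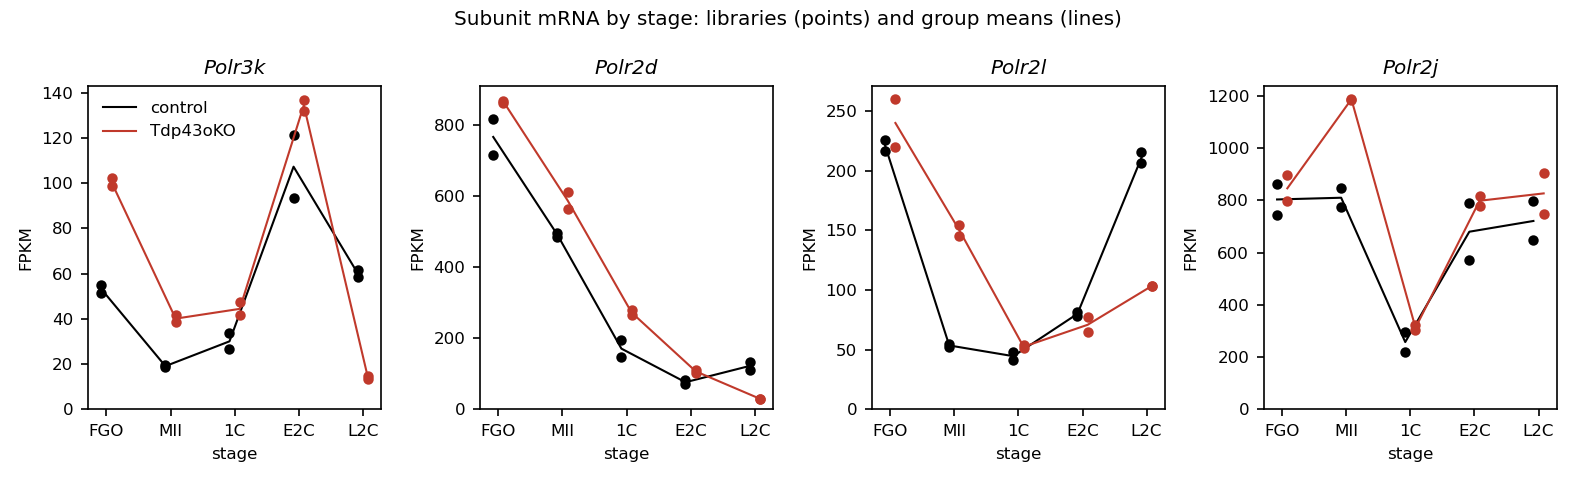
FPKM of Polr3k, Polr2d, Polr2l and Polr2j (linear axes from 0) at the 5 stages in control (black) and Tdp43oKO (red) libraries, with points for the 2 libraries of each group and lines through the group means. Polr3k and Polr2d lie above control from FGO to E2C and below it in L2C, Polr2l is raised in MII oocytes, and Polr2j ends at 749 and 905 FPKM in Tdp43oKO L2C against 646 and 796.

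In E2C, 2 of 18 subunit mRNAs were lower in Tdp43oKO embryos and none higher, against 7.14% and 3.05% of 6657 genes. Polr2e was 0.825 and 4.5 FPKM against 11 and 8.43 (-1.75 ± 0.53, limma adjusted p = 0.037), and Polr1c 0.553 and 2.13 against 4 and 6.24 (-1.45 ± 0.37, limma adjusted p = 0.014). The groups did not overlap for either, but Tdp43oKO replicate 1 was well below replicate 2 for both, and neither call was made without E2C control replicate 1, E2C control replicate 2 or E2C Tdp43oKO replicate 1 (0 calls each), against 3 calls without E2C Tdp43oKO replicate 2, nor when only the 4 libraries compared were fitted. Polr3e was listed at 0 in both Tdp43oKO libraries.

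In L2C the subunit mRNAs were broadly lower in Tdp43oKO embryos. Of 25 tested, 20 were called lower and 0 higher, against 40.6% and 6.75% of 7760 genes. The median change of the 25 was -1.48 and that of all genes -0.79. Every Tdp43oKO library was below every control library for 23 of the 25, as for 69.2% of the genes tested. These are shares of sequenced fragments, and less mRNA of a gene per embryo, fewer embryos with that mRNA, and a shift in the rest of the mRNA cannot be told apart in pools.

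Because all genes were shifted together in this comparison, the scale matters. Median-ratio scaling raised the median of all genes by 0.60 and scaling to equal column totals by 0.50, and the subunits were then called 10 lower and 2 higher (18.4% and 14.8% of genes) or 12 lower and 1 higher (23.6% and 15.9%), and 11 lower and 1 higher under quantile normalization (21% and 19.1%). The median of the subunits remained below that of all genes each time, -0.85 against -0.19, -0.99 against -0.29 and -0.91 against -0.16. Called lower under all 4 scalings were 10, among them Polr1e, Polr2d, Polr2e, Polr2h, Polr2i, Polr2k, Polr2m, Polr3g and Polr3k. The same 10 passed under every other alternative in which they could be tested, single libraries left out included.

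**Figure D3:**
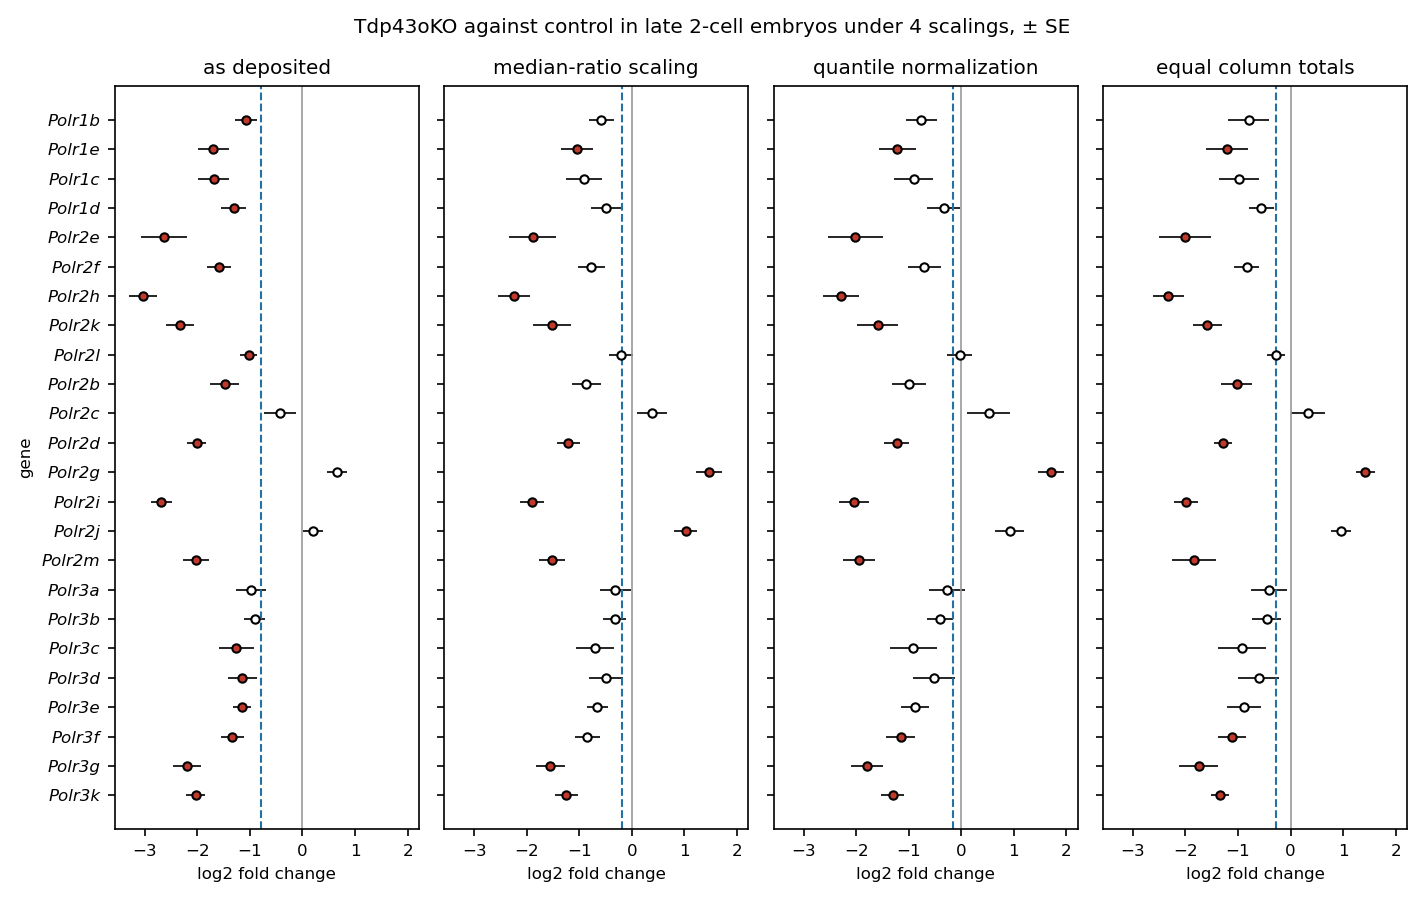
Log2 fold change, Tdp43oKO over control in L2C embryos, of 24 subunits tested, with the standard error as bars, for values as deposited and under 3 other scalings. Red points were called, the blue dashed line is the median of all 7760 genes (-0.79 as deposited, -0.19, -0.16 and -0.29 under the others), and Polr2h lies lowest in each panel.

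The common subunits fell furthest as a class, with all 5 called lower as deposited and a median of -2.33. Polr2h was 37 and 18.6 FPKM against 223 and 224 in control (-3.04 ± 0.27, limma adjusted p = 4.6e-08). Polr2k was 128 and 90.8 against 586 and 514 (-2.33 ± 0.26, limma adjusted p = 6e-07), and Polr2e 9.78 and 7.15 against 55.4 and 59.5 (-2.64 ± 0.44, limma adjusted p = 4e-05). In none of these did the groups come near each other. Polr2f (-1.59 ± 0.23) and Polr2l (-1.02 ± 0.16) were called lower as deposited and under no other scaling, and Polr2l also not without L2C control replicate 1.

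Compared with their own E2C level, Polr2h and Polr2k rose less in Tdp43oKO embryos. On the log2(FPKM + 1) scale, group means of Polr2h rose by 3.65 from E2C to L2C in control and by 0.94 in Tdp43oKO, and those of Polr2k by 3.64 and 1.12. The difference in effect between L2C and E2C was -2.71 ± 0.41 for Polr2h (limma adjusted p = 6e-05) and -2.52 ± 0.40 for Polr2k (limma adjusted p = 0.0001). For Polr2e the corresponding rises were 2.46 and 1.57. The difference of its effects, -0.89 ± 0.66, was not called under any of the 4 scalings and ran from -0.89 to 0.16 over them. The differences for Polr2f (-0.85 to -0.01) and Polr2l (-0.84 to 0.06) were not called under any scaling either.

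Summed over their members as deposited, the classes differed in FPKM. The 5 common subunits together were 1363 and 1319 FPKM in control L2C and 383 and 313 in Tdp43oKO. Their sum in control E2C was 381 and 361, but the total of all FPKM differed between these libraries. It was 350521 and 301587 in control E2C and 124265 and 126713 in Tdp43oKO L2C, so the levels cannot be equated. The Pol III only subunits summed to 119 and 121 FPKM against 34.4 and 26.9, the Pol I only subunits to 16.2 and 18.5 against 6.17 and 3.5, and the pair of Pol I and III to 273 and 283 against 126 and 89.3. The 8 Pol II only subunits summed to 952 and 1140 FPKM in control and 878 and 1044 in Tdp43oKO, with overlap, most of it being Polr2j in both groups. Such sums follow the most abundant member of each class, were not rescaled and are given as levels only.

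Pol II's own subunits were divided. Polr2i, a small subunit that serves in start site choice and proofreading in yeast, was 15.5 and 14.6 FPKM in Tdp43oKO L2C against 99.6 and 104 in control (-2.68 ± 0.20, limma adjusted p = 1e-08). As deposited it was also lower than in Tdp43oKO E2C (49.8 and 35 FPKM), while in control it rose from 28 and 28.3. The fall within Tdp43oKO was not tested. The sum of all FPKM was lower in Tdp43oKO L2C too (124265 and 126713, against 329047 and 363993 in Tdp43oKO E2C). The effect on Polr2i differed between the stages by -3.24 ± 0.30 (limma adjusted p = 3.9e-07), the widest gap among the 25. Polr2d, given above, and Polr2m (1.35 and 1.23 against 7.2 and 9.57 FPKM, -2.03 ± 0.24), which encodes a negative regulator bound to Pol II rather than a core subunit, were also called lower under all scalings. Polr2b, the second catalytic subunit, was 2.23 and 2.61 against 7.37 and 9.9 FPKM (-1.48 ± 0.27) and passed as deposited and with equal column totals only among the scalings.

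The other Pol II mRNAs were not called lower. Polr2j was 749 and 905 FPKM in Tdp43oKO against 646 and 796 in control, overlapping (0.20 ± 0.19), and was called higher after median-ratio scaling. Polr2g was 46.1 and 46.1 against 28.4 and 29.5 FPKM, above control in both libraries (0.65 ± 0.19, limma adjusted p = 0.0045, under 2-fold), and was called higher under the other 3 scalings (up to 1.71). Polr2c was 34.9 and 45.2 against 49.9 and 58.1 (-0.43 ± 0.31), not called under any scaling, and its value ran from -0.43 to 0.52 over them. Within the stalk pair, Polr2d was lower and Polr2g was not. By the rule above Polr2c, Polr2d and Polr2g were all maternal genes. From E2C to L2C in control, Polr2g and Polr2c were called lower as deposited and Polr2d was not. The call of Polr2c was lost with equal column totals. Polr2a was under the filter, at 0.553 and 0.349 FPKM against 1.16 and 0.994. Without the filter its difference was -0.52 ± 0.17 (limma adjusted p = 0.027 over 19621 genes), under 2-fold.

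**Figure D4:**
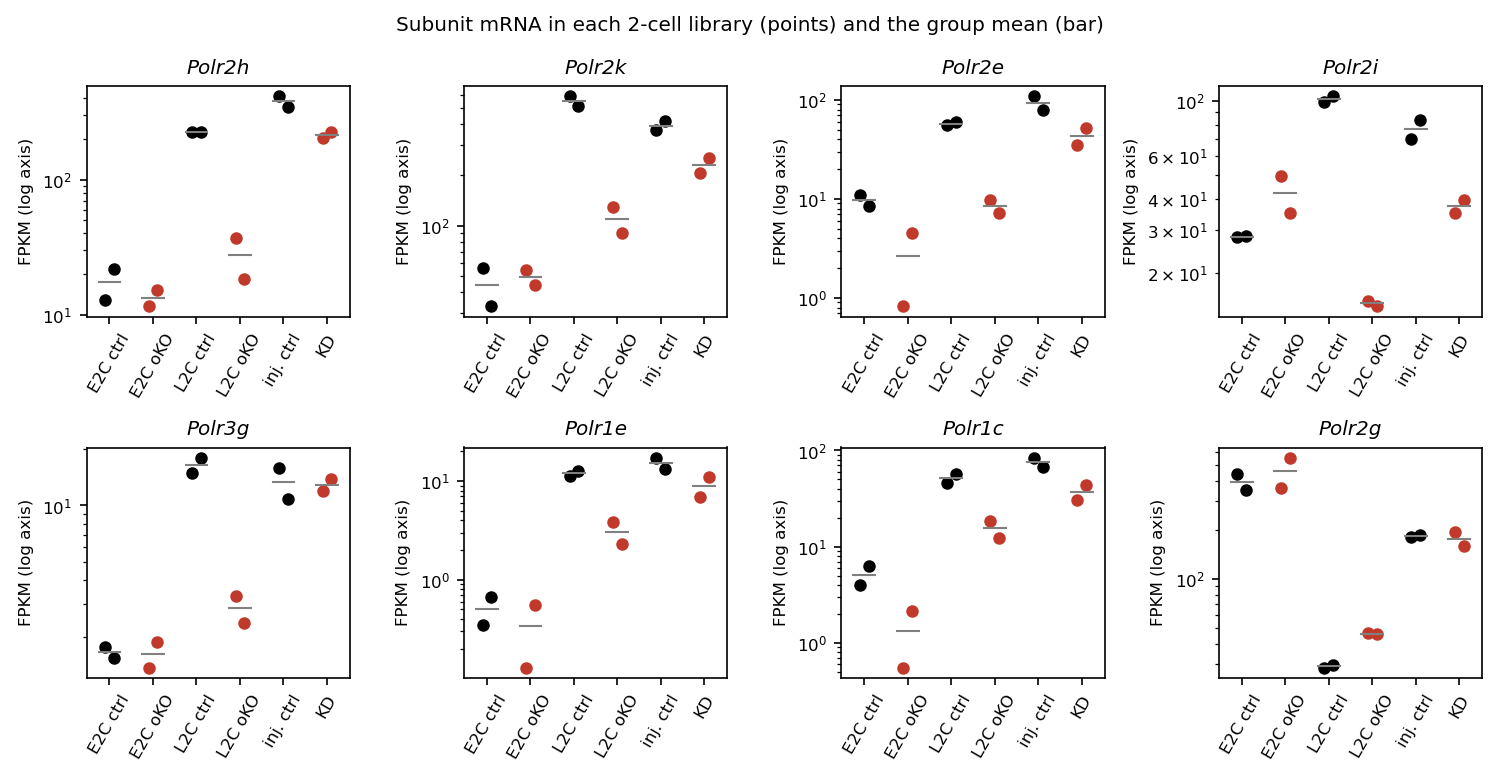
FPKM (log axes) in each 2-cell library for 8 subunit mRNAs, with control in black, Tdp43oKO or KD in red, 2 points a group and a bar at the group mean. Polr2h, Polr2k, Polr2e, Polr3g, Polr1e and Polr1c rise from control E2C to control L2C and lie lower in Tdp43oKO L2C. Polr2i rises in control and is lower in Tdp43oKO L2C than in Tdp43oKO E2C as deposited, which was not tested. Polr2g falls in both, to 28.4 and 29.5 in control and 46.1 and 46.1 in Tdp43oKO.

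In Pol III, 7 of 9 own subunits were called lower as deposited, with a median of -1.26. Polr3g, a member of the initiation subcomplex with Polr3c and Polr3f, was 3.29 and 2.37 FPKM against 14.9 and 17.9 (-2.19 ± 0.27, limma adjusted p = 1.4e-06). Polr3g and Polr3k passed under all scalings. Of the other subcomplex members, Polr3f (1.16 and 1.08 against 4.38 and 4.3 FPKM, -1.33 ± 0.21) failed only median-ratio scaling among them, and Polr3c (-1.26 ± 0.33) passed only as deposited, and not without L2C Tdp43oKO replicate 2, which held 0.96 FPKM against 2.7 in replicate 1.

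The remaining Pol III mRNAs changed less. Polr3d and Polr3e were -1.14 ± 0.28 and -1.15 ± 0.17, passed only as deposited and not without L2C Tdp43oKO replicate 2. The catalytic subunits Polr3a (3.45 and 3.14 against 7.42 and 7.55 FPKM, -0.98 ± 0.29) and Polr3b (-0.91 ± 0.20) had adjusted p values of 0.006 and 0.00063 in limma but did not reach 2-fold.

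Polr3g and Polr3gl encode alternative forms of the same position in Pol III. In control FGO the sum of both was 77.5% and 76.9% Polr3g, and in control L2C 99.6% and 96.4%. In Tdp43oKO L2C the share was 95.9% and 88.8%, with Polr3gl at 0.141 and 0.297 FPKM, too low for its share to be read as a change. Polr3g made up nearly the whole of the pair in both groups, and Polr3gl was at most 0.704 FPKM in any library.

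In Pol I, Polr1e was 3.87 and 2.28 FPKM in Tdp43oKO L2C against 11.4 and 12.5 in control (-1.69 ± 0.29, limma adjusted p = 5.5e-05) under all scalings. Polr1b, the second catalytic subunit, was 1.81 and 0.85 against 3.42 and 4.29 (-1.08 ± 0.21), called only as deposited and not without L2C control replicate 2 or L2C Tdp43oKO replicate 2. Polr1a was under the filter, at 0.481 and 0.365 FPKM against 1.44 and 1.68. The pair shared with Pol III, Polr1c (18.5 and 12.5 against 46 and 57.2, -1.69 ± 0.30) and Polr1d (107 and 76.8 against 227 and 226, -1.31 ± 0.23), were called lower as deposited and under no other scaling.

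Tested directly, the effect of Tdp43oKO was more negative in L2C than in E2C for 13 of 25 subunits and less negative for none, against 28.8% and 8.1% of 7836 genes. Of these, 6 held under every alternative: Polr2d (-2.50 ± 0.28), Polr2h, Polr2i, Polr2k, Polr3g (-2.17 ± 0.41) and Polr3k. With equal column totals 6 were more negative and 1 less (10.3% and 18.5% of genes). The median of all genes, -0.50 as deposited, was -0.03, -0.09 and 0.22 under median-ratio scaling, quantile normalization and equal column totals. The control L2C libraries enter this comparison, the step from E2C and the L2C contrast alike.

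**Figure D5:**
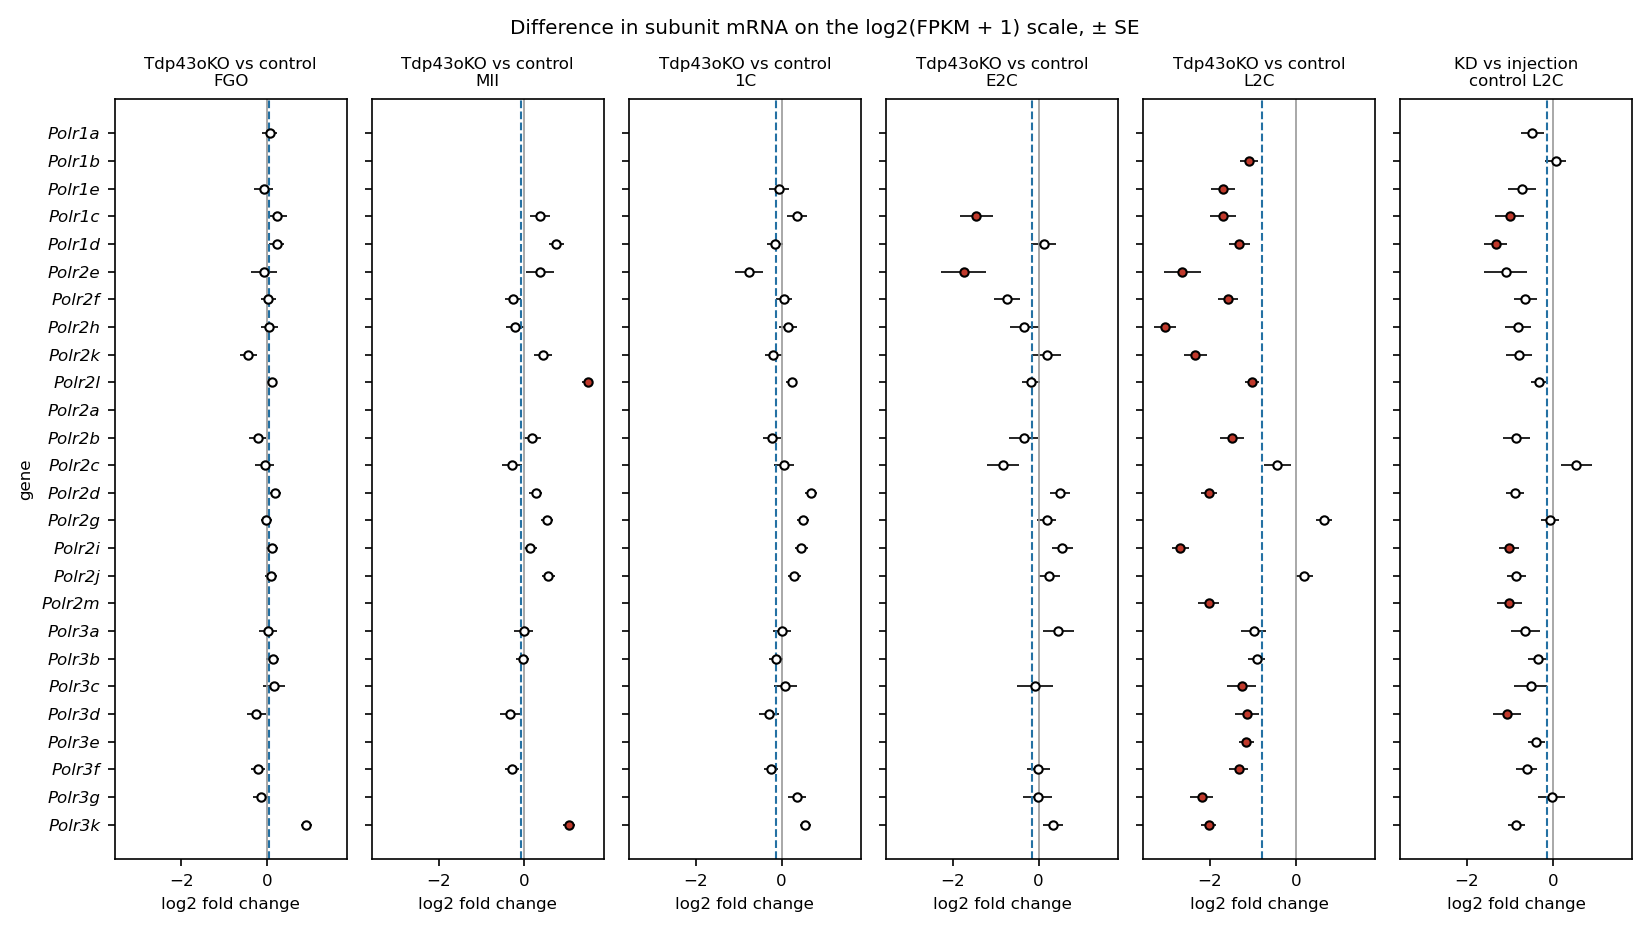
Log2 fold change on the log2(FPKM + 1) scale with its standard error for 26 subunits (rows) in Tdp43oKO against control at 5 stages and in KD against injection control. Red points were called, missing points were under 1 FPKM, and the dashed line is the median of all genes tested (-0.79 in L2C, -0.13 in KD). Before E2C the red points are Polr2l and Polr3k in MII oocytes, and in L2C 19 of the 24 drawn are red.

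Depletion of TDP-43 by Trim-away from the 1-cell stage gave differences of mostly the same sign. Of 26 subunit mRNAs tested, 5 were called lower in the libraries titled KD and 0 higher, against 7.99% and 7.43% of 8100 genes, and 24 of the 26 had negative values with a median of -0.75 (-0.13 for all genes). For 20 of the 26 both KD libraries were below both injection controls, as for 40.3% of genes. The called ones were Polr1d, at 72.3 and 107 FPKM against 239 and 207 (-1.33 ± 0.27, limma adjusted p = 0.002), Polr3d (-1.06 ± 0.32), Polr2i, at 35.1 and 39.7 against 70.2 and 83.5 (-1.02 ± 0.23), Polr2m (-1.01 ± 0.29) and Polr1c (-1.01 ± 0.35, limma adjusted p = 0.039).

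Several abundant subunits that were called lower in Tdp43oKO L2C were not called in KD. Polr2k was 205 and 253 FPKM in KD against 368 and 419 in the injection controls (-0.78 ± 0.31), Polr2e 34.8 and 52.6 against 108 and 79.2 (-1.10 ± 0.50) and Polr2f 304 and 394 against 597 and 486 (-0.64 ± 0.27). The difference between the effects of Tdp43oKO and KD was itself called for Polr2k as deposited only, and for Polr2e and Polr2f under none of the 4 scalings. Polr2d (161 and 188 against 355 and 287, -0.87 ± 0.21), Polr2j (-0.85 ± 0.23) and Polr3k (198 and 215 against 410 and 337, -0.85 ± 0.20) passed the adjusted p but not 2-fold. Positive values were those of Polr2c, 133 and 124 FPKM against 86.7 and 88.7 (0.54 ± 0.36), and of Polr1b, 2.21 and 1.91 against 2.19 and 1.68 (0.07 ± 0.25). Summed, the 5 common subunits were 981 and 1179 FPKM in KD against 1824 and 1606, and the 9 of Pol III only 230 and 257 against 472 and 382, without overlap in either.

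These 5 calls lay near the 2-fold limit. None was made with equal column totals, which moved the median of all genes from -0.13 to 0.18, and without KD replicate 1 none remained, while 3 were called without KD replicate 2 and 2 without injection control replicate 1. Blood and immune markers summed to 115 to 143 FPKM in KD and 50.6 to 74 in the injection controls, mostly Hba-a1 (111 and 138 against 69.6 and 48.4 FPKM), with Hbb-b1 listed at 0 in all 4 libraries and Ptprc at 0 in 3. The 5 oviduct markers summed to 38.5 to 44.6 in KD and 60.5 to 66.8 in the controls, mostly Epcam, with Pax8 and Foxj1 at 0. Their part in the result was not tested.

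The effects in the knockout and the Trim-away embryos were also compared directly. The injection controls differed in level from the floxed L2C controls, for example in Polr3k (410 and 337 against 61.7 and 58.6 FPKM), so each effect is set against its own control. The injected embryos were also cultured to L2C, and the part of injection and culture was not tested. For Polr3g the difference was 12 and 13.8 FPKM in KD against 15.9 and 10.9, overlapping, and the effect in Tdp43oKO L2C was more negative by -2.16 ± 0.40 (limma adjusted p = 0.00099). For Polr2h, 203 and 225 in KD against 412 and 345, the effects differed by -2.23 ± 0.40 (limma adjusted p = 0.00077). These 2 held under every alternative.

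In all, 9 of 26 subunits had a more negative effect in Tdp43oKO L2C than in KD and 1, Polr2j, a less negative one (23.5% and 2.94% of 8152 genes). Without L2C control replicate 1, L2C Tdp43oKO replicate 2, KD replicate 1 or KD replicate 2 the number called was 6 each, and Polr2j was not among them. Polr2j was 634 and 673 FPKM in KD against 1197 and 1157, and the difference of its effects was 1.05 ± 0.29. With median-ratio scaling 2 were more negative and 2 less (4.43% and 8.51%), and with equal column totals 3 and 2 (10.4% and 4.5%). The median of all genes, -0.62 as deposited, was 0.02, -0.07 and -0.42 under median-ratio scaling, quantile normalization and equal column totals. For Polr1d the 2 effects were alike in size as deposited, -1.31 and -1.33, and their difference was 0.02 ± 0.35. Over the 4 scalings this difference ran from 0.02 to 0.89 and was not called.

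The patterns of the subunits over the 12 group means were compared by Pearson's r on log2(FPKM + 1), as a description, since all points share libraries and scale. The median r was 0.83 over the 3 pairs within Pol I only, 0.69 over the 10 pairs of common subunits, 0.48 over the 36 pairs within Pol III only and 0.23 over the 28 pairs within Pol II only. Over all 78 pairs within a class the median r was 0.47, close to the 0.45 over the 273 pairs of different classes. The closest pairs joined different classes: Polr1b with Polr3e (0.96), which share no enzyme, and Polr2h with Polr3g (0.96) and Polr1d with Polr2k (0.95), which do. Polr2g was the least like most others, with a median r of -0.21 to the other 26 and the lowest value, -0.84, with Polr3d.

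A further 4 subunits are listed in the files under older symbols, and with the factors that load or assemble the polymerases they give the neighbourhood of the 27. In Tdp43oKO L2C embryos all 4 were called lower as deposited (40.6% of all genes were). Crcp, a subunit of Pol III (-2.34 ± 0.28), and Twistnb, the Pol I stalk subunit (-1.81 ± 0.24), were lower under all 4 scalings, and Cd3eap, the partner of Polr1e (-1.32 ± 0.32), and Znrd1, a small Pol I subunit (-1.24 ± 0.30), as deposited only. In KD, Znrd1 (-1.56 ± 0.34) and Twistnb (-1.49 ± 0.28) were lower under all 4 scalings and Crcp (-1.08 ± 0.33) under 2 of them.

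Of 5 Pol I factors tested in L2C, 4 were called lower in Tdp43oKO embryos as deposited, and Rrn3, which recruits Pol I (-2.09 ± 0.22), and Ubtf, which binds the ribosomal RNA genes (-1.79 ± 0.17), under all 4 scalings. Of 17 Pol II general factors 11 were called lower and 1 higher as deposited, and 5 to 6 lower and 2 higher under the other scalings. Of all genes, 40.6% were lower and 6.75% higher as deposited. Under the other scalings 18.4% to 23.6% of all genes were lower and 14.8% to 19.1% higher. Gtf2h2 (-2.27 ± 0.22), Gtf2h5 (-1.94 ± 0.19), Cdk7 and Ccnh (-2.02 ± 0.22) of TFIIH and Gtf2e2 of TFIIE (-2.12 ± 0.31) were lower under all 4, while Gtf2b, the bridge between the promoter and Pol II, was higher under all 4 (1.18 to 2.32).

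Of 15 Pol III factors 10 were called lower as deposited and 2 to 5 under the other scalings, under which 18.4% to 23.6% of all genes were. Gtf3a, which binds the genes for the small ribosomal RNA (-1.60 ± 0.27), was lower under all 4, and Snapc5, a subunit of the complex that serves snRNA promoters (-1.65 ± 0.20), as deposited only. Of 12 assembly and import factors 8 were called lower as deposited and 2 to 3 otherwise, a share near that of all genes, with Gpn3 (-2.51 ± 0.36), a GTPase of polymerase import, and Ruvbl2 (-1.88 ± 0.38), an ATPase of a chaperone complex, lower under all 4. The medians of the lists ran from -1.01 for the assembly factors to -1.56 for the 4 older symbols, with -0.79 for all genes. In KD, 5 of 16 Pol II factors and 1 of 13 Pol III factors were called lower (7.99% of all genes were), Gtf2h2 under all 4 scalings, and 0 of 5 Pol I factors and 0 of 12 assembly factors passed in limma, where 2 and 5 had an unadjusted p under 0.05.

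Before L2C few of these factors were called. Snapc5 was higher in Tdp43oKO MII oocytes (1.85 ± 0.16, limma adjusted p = 2.1e-07) and Snapc3 in 1C (1.42 ± 0.19). In E2C Gpn3 (-2.01 ± 0.45), Gpn1 (-1.13 ± 0.35), Gtf3c6 (-2.15 ± 0.43) and Taf1d (-1.36 ± 0.23) were lower and Mnat1 (1.09 ± 0.26) and Gtf2h2 (1.04 ± 0.28) higher.

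The genes lie on many chromosomes. In the mm9 annotation, those that were lower in Tdp43oKO L2C under all scalings include Polr2h (chr16:20717738-20722340, plus strand, 5 exons in its longest transcript), Polr2k (chr15:36103772-36106767, plus strand, 4 exons), Polr2e (chr10:79498694-79502540, minus strand, 4 exons), Polr2i (chr7:31016967-31018409, plus strand, 6 exons), Polr3g (chr13:81812842-81850012, minus strand, 8 exons), Polr3k (chr2:181599042-181605535, plus strand, 3 exons) and Polr1e (chr4:45031455-45049437, plus strand, 12 exons). Polr2j lies at chr5:136592501-136598817 (plus strand, 3 exons) and Polr2g at chr19:8867619-8873047 (minus strand, 8 exons).

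The counting did not use strand, and exons of 9 of the 26 subunit genes with a model in the mm9 annotation overlap those of another gene, so their reads cannot be told apart from those of their partners, among them Polr2h with Clcn2, Polr2i with Tbcb, Polr2j with Lrwd1, Polr2c with Dok4, Polr3c with Rnf115, Polr2b with Igfbp7, and Polr1a and Polr3b with predicted genes. Polr2k, Polr2e, Polr2d, Polr3g, Polr3k and Polr1e have no such overlap. Transcript length did not order the L2C changes, whose medians ran from -0.85 to -0.77 over 4 equal length classes of genes, but it did those in MII oocytes, from 0.21 in the shortest class to -0.17 in the longest. Polr2l, with a longest transcript of 1650 bases, lies in the shortest class and Polr3k, with 2948, in the third.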

How the data were processed

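RNA-seq was made by the study from pools of 20 oocytes or embryos by Smart-seq2. The authors trimmed reads with Trim Galore 0.6.6 per the submitters' notes, whereas the study's methods name Cutadapt. Per both sources they aligned them to mm9 with HISAT2 2.2.1 and used StringTie 2.1.2, and the deposited values are FPKM. The deposited table of FPKM holds 24085 rows and 24 libraries, of which 24056 genes were used, after leaving out 27 rows named by a date and 2 without values. FPKM does not give counts, whole reads could not be recovered and depth is unknown, so no interval for counting error was computed. Columns were matched to samples by title, and 16 Stacc-seq samples (of 40 in all) were not analysed here. The 27 subunits and all gene lists were chosen with earlier results of these data known.

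Tests used limma 3.58.1 in R 4.3.3 on log2(FPKM + 1), in which low genes change less than in FPKM. A single model over the 24 libraries (12 groups of 2, 12 residual degrees of freedom) was fitted with robust, trended variances and a weight for each collection of libraries. The filter was a mean of 1 FPKM or more in the libraries of each comparison, p-values were adjusted by Benjamini-Hochberg over all genes that passed it, and calls required both 2-fold change and adjusted p no higher than 0.05. All subunits were counted, and the values of 1 of them are not reported here. Calls on simulated data were checked first. Alternatives were pseudocounts of 0.1 and 5, a minimum of 5 FPKM or none, median-ratio scaling, quantile normalization, no weights, no 2-fold limit, only the libraries compared, the replicate number as a block, each library left out and, added after seeing the data, equal column totals. Promoters came from RefSeq and were placed in mm9. Figures were drawn with Python 3.11.15 and matplotlib 3.10.9.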

Additional observations from a re-analysis of the deposited data

Results flagged for a closer look

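Effects that differed between stages or experiments by a test of the difference itself are given here with that difference, on the log2(FPKM + 1) scale by limma with Benjamini-Hochberg adjustment. The effect of Tdp43oKO was more negative in L2C than in E2C embryos for Polr2i (-3.24), Polr2h (-2.71), Polr2k (-2.52), Polr2d (-2.50), Polr3k (-2.36), Polr3g (-2.17), Polr1e (-1.52), Polr3a (-1.44), Polr1d (-1.42), Polr3f (-1.33), Polr2m (-1.17) and Polr2b (-1.13). The median difference of all genes tested was -0.50, and the calls of Polr1e, Polr2b, Polr2m and Polr3a were lost when any of several single libraries was left out, control libraries of both stages among them, and that of Polr3f without E2C control replicate 2.

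The effect in L2C was more negative with Tdp43oKO than with KD for Polr2h (-2.23), Polr3g (-2.16), Polr2i (-1.67), Polr2k (-1.55), Polr3k (-1.18), Polr1b (-1.15), Polr2d (-1.14) and Polr2m (-1.02), and less negative for Polr2j (1.05). Of these, Polr2h and Polr3g held under every alternative.

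Among the steps from FGO to E2C, for which no difference between stages was tested, there were 4 cases in which both Tdp43oKO libraries lay on one side of both controls at a stage and on the other side at the next stage. The effect of Tdp43oKO on Polr1c, measured as the difference of group means, moved by -1.81 from 1C to E2C, that on Polr2e by -1.12 from MII oocytes to 1C, that on Polr2k by 0.87 from FGO to MII oocytes and that on Polr2l by -0.41 from 1C to E2C.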

How the results depend on the processing

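Calls among the subunits are counts in both directions here. The number called was 0 in FGO, 2 in MII oocytes, 0 in 1C, 2 in E2C, 20 in L2C and 5 in KD, 10, 7, 9 and 20 for the control steps in order of stage, 13 for L2C minus E2C and 10 for Tdp43oKO L2C minus KD. Without the 2-fold limit the counts were 1 in FGO, 5 in MII oocytes, 4 in 1C, 8 in KD, and 16, 14 and 15 for the steps to MII, 1C and E2C. With a pseudocount of 5 they were 1 in MII oocytes, 0 in E2C, 13 in L2C, 1 in KD, 5 for the step from 1C to E2C and 6 for Tdp43oKO minus KD, and with one of 0.1 the KD count was 3. With a minimum of 5 FPKM, which tests fewer genes, they were 1 in E2C, 3 in KD, 13 for the step to L2C and 7 for L2C minus E2C, and without a minimum 1 in E2C, 2 in KD and 6 for Tdp43oKO minus KD. With only the libraries compared E2C had 0. With median-ratio scaling L2C had 12 and Tdp43oKO minus KD 4, with quantile normalization 12 and 5, with KD at 3. With equal column totals, an alternative chosen after seeing the data, the counts were 1 in MII oocytes, 13 in L2C, 0 in KD, 11 for the step to 1C, 7 for L2C minus E2C and 5 for Tdp43oKO minus KD. Polr2m turned from -1.17 to 0.23 in L2C minus E2C with a pseudocount of 0.1 (limma adjusted p = 0.88). Beyond these constructions the cause was not tested.

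Leaving out single libraries gave 0 to 0 calls in FGO, 1 to 2 in MII oocytes (1 without control replicate 2 or Tdp43oKO replicate 2), 0 to 1 in 1C, 0 to 3 in E2C, 16 to 21 in L2C and 0 to 6 in KD. For the steps the ranges were 10 to 11, 6 to 10, 7 to 11 and 19 to 21, for L2C minus E2C 9 to 16, and for Tdp43oKO minus KD 6 to 11. The lone remaining library was then assumed to vary like the others.

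Groups share replicate numbers, but the labels do not say that a number marks a shared animal or day, and deviations of same-numbered libraries correlated between -0.31 and 0.23 over the comparisons. The replicate block left the counts at 0, 2, 0, 2, 20, 5, 10, 7, 9, 20, 13 and 10. Depth is unknown, so values under 1 FPKM, such as those of Polr2a before L2C and Polr1a from MII to E2C, carry an unknown counting error, and 2 libraries a group limit every test.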
